A study of Caenorhabditis elegans with 21 samples.

Results

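The DAF-16a isoform was examined in Caenorhabditis elegans that already lack the DAF-16f isoform. Animals of the genotype daf-16(mg54);daf-2(e1370), whose daf-16 mutation affects the a and f isoforms per the labels, were set against animals of the genotype daf-16(tm6659);daf-2(e1370), whose mutation affects f. Each genotype had 3 libraries, so 6 of the 21 libraries of the study made up the comparison, and they were taken by the genotype in their labels and not by any measured value. Both carry daf-2(e1370), and they are called mg54 animals and tm6659 animals below. Genes lower in mg54 than in tm6659 animals are those whose transcript was more abundant where the a isoform was left.

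In worms, daf-2 codes for a receptor of the insulin and IGF-1 family. When its activity is low, as with e1370, the FoxO transcription factor DAF-16 enters nuclei, raises genes of stress defence, immunity and fat metabolism, and lowers others. The a and f isoforms share the DNA-binding domain and differ in their promoters and amino-terminal parts, and both are known to act in lifespan, fat storage and stress resistance.

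The other libraries served for context, with 3 of each genotype. In daf-16(tm5030);daf-2(e1370) and daf-16(tm5032);daf-2(e1370), 2 independent daf-16a mutations remove a while f is present. The genotype daf-16(mu86);daf-2(e1370) is the daf-16 null, daf-2(e1370) has daf-16 intact, and N2 is the wild-type strain. All were whole day 1 adults from a 4-hour egg-lay that grew at 15 °C to the last larval stage and then spent 20 to 24 hours at 20 °C. The mg54 and tm6659 alleles were each present as a single strain, so loss of an isoform and any other difference between the strains cannot be told apart. The labels do not say whether the replicates came from separate cultures, so p-values measure the spread between these libraries.

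Polyadenylated RNA was counted in fragments per locus, and the 6 libraries held 30384772 to 42456264 fragments. Levels are given as CPM, counts scaled to the size of the library, which are not corrected for transcript length. Means are given with the SD over 3 libraries. Fold changes are on the log2 scale with a standard error (SE), and positive values are higher in mg54. A gene is called changed at a Benjamini-Hochberg adjusted p under 0.05 in the quasi-likelihood test of edgeR across 12091 loci, called genes here. Where genes overlap, a locus can hold several, written with slashes, and it is not known which of them changed.

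The daf-16 locus itself was higher in mg54 than in tm6659 animals. It held 94.4, 94.3 and 94.0 CPM in mg54, against 49.02, 54.01 and 70.15 CPM in tm6659 (log2 change 0.71 ± 0.11 SE, adjusted p = 0.000691), and the groups did not overlap. Both lay below daf-2, with 163 CPM on average, and below tm5030 and tm5032, with 144 and 165 CPM. They also lay below the mu86 null, with 154 CPM, and N2, with 187 CPM. The count covers the whole locus, so it does not show which isoform the fragments came from and does not check the labels. Without replicate 2 of every genotype, and with the deposited FPKM values, the daf-16 difference did not pass. The receptor gene daf-2 held 119, 120 and 107 CPM in mg54, against 150, 174 and 153 CPM in tm6659 (log2 change -0.46 ± 0.11 SE, adjusted p = 0.0203). That call did not pass without any 1 of 5 of the 6 libraries.

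Between mg54 and tm6659 animals, 791 of 12091 genes changed, which is 6.54%. Of these, 464 genes (3.84%) were lower and 327 (2.7%) were higher in mg54 animals. The median log2 change was -1.56 among the genes called lower and 1.01 among the genes called higher. The libraries of the 2 genotypes did not overlap for 790 of the 791 called genes and for 18.7% of all genes tested. In all, 329 of the lower and 165 of the higher genes changed at least 2-fold. The replicate numbers pair the libraries of mg54, tm6659, tm5030, tm5032 and daf-2 in these data, and N2 and mu86 were not checked. With the number as a block over all libraries 1522 genes passed, 813 lower (6.72%) and 709 higher (5.86%), among them all 791. With the block fitted to the 6 libraries alone 685 passed, 365 lower and 320 higher, among them 522 of the 791. The count was 518 without mg54 replicate 1, 502 without tm6659 replicate 2, 347 without replicate 2 of every genotype, and 331 when the model was fitted to the 6 libraries alone.

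The genes with the largest decreases include stress defence genes, lysosomal lipases and secreted proteins. The gene sdz-24, named as a SKN-1-dependent zygotic transcript, held 0.0317, 0.0681 and 0.223 CPM in mg54, against 13.2, 15.1 and 29.0 CPM in tm6659 (log2 change -7.38 ± 0.61 SE, adjusted p = 6.94e-07). These are 11 fragments in the mg54 libraries together and 2144 in the tm6659 libraries. Metallothioneins bind heavy metals, and the metallothionein gene mtl-1 is listed at 2 loci, between which its reads may have been divided. The locus with more counts held 0.444, 1.09 and 0.251 CPM in mg54, against 27.7, 45.4 and 22.7 CPM in tm6659 (log2 change -5.76 ± 0.58 SE, adjusted p = 6.71e-06). The other locus had a log2 change of -5.93 ± 0.69 (adjusted p = 3.3e-05).

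Lipases of the lysosome free fatty acids from stored fat. Of these, lipl-1 held 0.127, 0.306 and 0.864 CPM in mg54, against 12.7, 14.9 and 16.06 CPM in tm6659 (log2 change -5.04 ± 0.78 SE, adjusted p = 0.00049). Its relative lipl-2 held 0.793, 0.715 and 1.17 CPM in mg54, against 17.2, 20.8 and 18.2 CPM in tm6659 (log2 change -4.38 ± 0.36 SE, adjusted p = 6.94e-07). For both lipases every mg54 library lay far below every tm6659 library, though the choice of the genes required that they not overlap. The gene hen-1, which encodes a secreted protein with an LDL receptor motif known from sensory integration, held 0.159, 0.204 and 0.251 CPM in mg54, against 4.01, 6.13 and 2.92 CPM in tm6659 (log2 change -4.38 ± 0.55 SE, adjusted p = 7.21e-05).

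The iron storage ferritin gene ftn-1 held 1.05, 0.851 and 1.23 CPM in mg54, against 22.8, 25.1 and 11.6 CPM in tm6659 (log2 change -4.25 ± 0.36 SE, adjusted p = 1.07e-06). The gene dod-3, named for acting downstream of daf-16, held 4.13, 2.79 and 4.13 CPM in mg54, against 71.2, 85.8 and 32.6 CPM in tm6659 (log2 change -4.10 ± 0.43 SE, adjusted p = 9.75e-06). For both genes tm6659 replicate 3 was the lowest of its group and still lay far above every mg54 library. The choice of these genes too required no overlap. The mitochondrial superoxide dismutase gene sod-3, a common reporter of DAF-16 activity, held 3.59, 3.61 and 4.93 CPM in mg54, against 38.9, 45.4 and 59.0 CPM in tm6659 (log2 change -3.56 ± 0.40 SE, adjusted p = 2.46e-05). Also among the 15 largest decreases were spp-21/spp-9, dlhd-1, fip-6, bath-26, the transthyretin-related gene ttr-26 and the acid sphingomyelinase gene asm-3, with log2 changes from -7.17 in spp-21/spp-9 to -3.46 in asm-3.

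**Figure D1:**
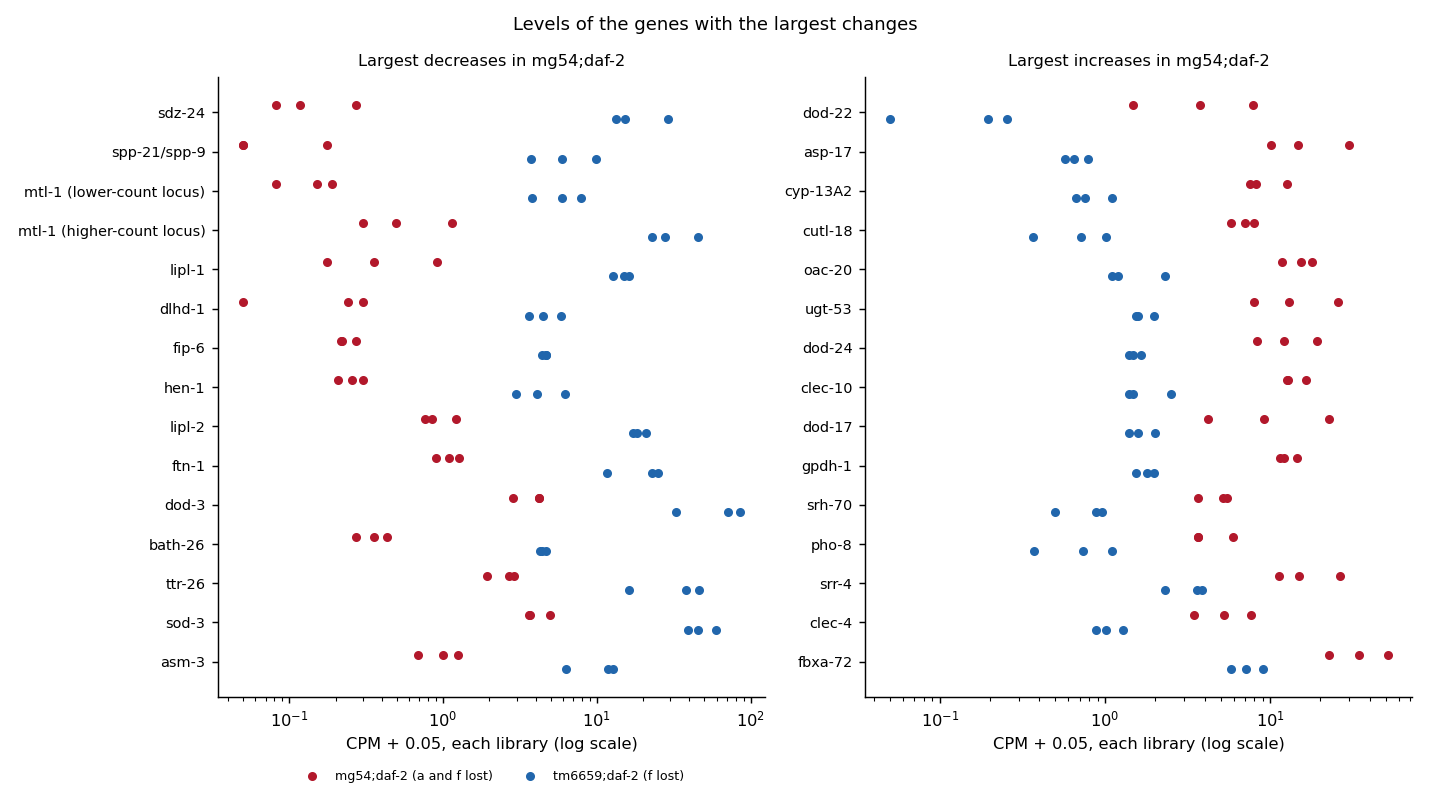
Level of the 15 loci with the largest decreases (left) and the 15 with the largest increases (right) in mg54;daf-2, among called genes with a public symbol that averaged 2 CPM or more in the 6 libraries. Each point is 1 library, on a logarithmic axis of CPM with 0.05 added, with mg54;daf-2 in red above tm6659;daf-2 in blue. In all 30 loci the libraries of the 2 genotypes are apart, which the choice of the genes required.

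Among the genes with the largest increases were members of the dod group, a protease gene and genes of detoxification and lectin families. The gene dod-22, which encodes a secreted protein with a CUB-like domain and is known to be lowered through DAF-16, held 3.71, 1.43 and 7.80 CPM in mg54, against 0.206, 0 and 0.146 CPM in tm6659 (log2 change 5.15 ± 0.82 SE, adjusted p = 0.000664). For asp-17, which codes for an aspartyl protease, the libraries held 14.6, 10.0 and 29.7 CPM in mg54, against 0.733, 0.603 and 0.526 CPM in tm6659 (log2 change 4.86 ± 0.57 SE, adjusted p = 3.51e-05). For dod-22 and asp-17 mg54 replicate 3 was the highest library and replicate 2 the lowest of the genotype.

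The cytochrome P450 gene cyp-13A2 held 7.49, 8.14 and 12.7 CPM in mg54, against 0.619, 0.708 and 1.05 CPM in tm6659 (log2 change 3.57 ± 0.32 SE, adjusted p = 2.23e-06). The acyltransferase homologue oac-20 held 15.2, 17.9 and 11.7 CPM in mg54, against 2.25, 1.15 and 1.05 CPM in tm6659 (log2 change 3.32 ± 0.33 SE, adjusted p = 6.85e-06). For gpdh-1, whose enzyme makes glycerol under osmotic stress, the libraries ran from 11.3 to 14.4 CPM in mg54, against 1.49 to 1.92 CPM in tm6659 (log2 change 2.87 ± 0.39 SE, adjusted p = 0.000172). The libraries of the 2 genotypes were apart for each of these genes, by more than the spread within either genotype. That they did not overlap was required by the choice of the genes.

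Cuticlin-like cutl-18, the glucuronosyltransferase gene ugt-53, dod-24, the lectin genes clec-10 and clec-4, dod-17, the chemoreceptor-class genes srh-70 and srr-4, the phosphatase-family gene pho-8 and the F-box gene fbxa-72 completed the 15 largest increases. Their log2 changes ran from 2.31 in fbxa-72 to 3.41 in cutl-18. The call of dod-17 (adjusted p = 0.0273) rested on single libraries, since it did not pass without mg54 replicate 3 or without any 1 of the tm6659 libraries.

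Genes were also sorted by the libraries that took no part in the comparison. In daf-2 against N2, 10.9% of genes were higher and 5.84% lower. In mu86 against daf-2, 6.16% were lower and 4.13% higher. Class I holds 609 genes (5.04%) that daf-2 had raised relative to N2 and mu86 had lowered relative to daf-2. Class II holds 249 genes (2.06%) with both changes reversed. Of the class I genes, 389 (63.9%) fell in mg54 against tm6659 animals and 220 did not pass, with a median log2 change of -1.09 over the class, beside 0.01 over all genes. These make up 83.8% of the genes that fell. Of the class II genes, 119 (47.8%) rose, 2 fell and 128 did not pass, with a median of 0.54. They make up 36.4% of the genes that rose, so 208 of the 327 higher genes lay outside class II, whereas 75 of the 464 lower genes lay outside class I. With the replicate block 655 of 1005 class I genes fell and 275 of 556 class II genes rose. That block covers N2 and mu86 too, for which the pairing of replicates was not checked. Without replicate 2 of every genotype, 172 of 330 class I genes fell and 54 of 119 class II genes rose. The classes were formed anew under each alternative, so their sizes changed too. The class II median was 0.24 without tm6659 replicate 1, 0.25 without mg54 replicate 1 or tm6659 replicate 3, 0.27 without daf-2 replicate 2 and 0.28 without daf-2 replicate 3, with 295 to 391 genes in the class. It was 0.15 with upper-quartile scaling, 0.16 at a mean of at least 2 CPM, 0.32 with the block, and 0.83 and 1.14 with the deposited FPKM values, and it stayed above 0 under each alternative tried.

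For each class, the mean log2 CPM of a library was placed on an axis on which the daf-2 mean is 0 and the mu86 mean is 1. On the class I axis mg54 lay at 0.956 ± 0.058 and tm6659 at 0.131 ± 0.071 (SD, n = 3 each). On the class II axis mg54 lay at 0.910 ± 0.019 and tm6659 at 0.198 ± 0.034. So tm6659 animals, with a left, lay near daf-2, and mg54 animals lay near the null. The daf-16a mutants, with f left, lay at 0.438 (tm5030) and 0.420 (tm5032) for class I and at 0.501 and 0.526 for class II. Since these axes are made from the daf-2 and mu86 libraries, the positions of those 2 genotypes are fixed, and no p-value is given for the score.

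**Figure D2:**
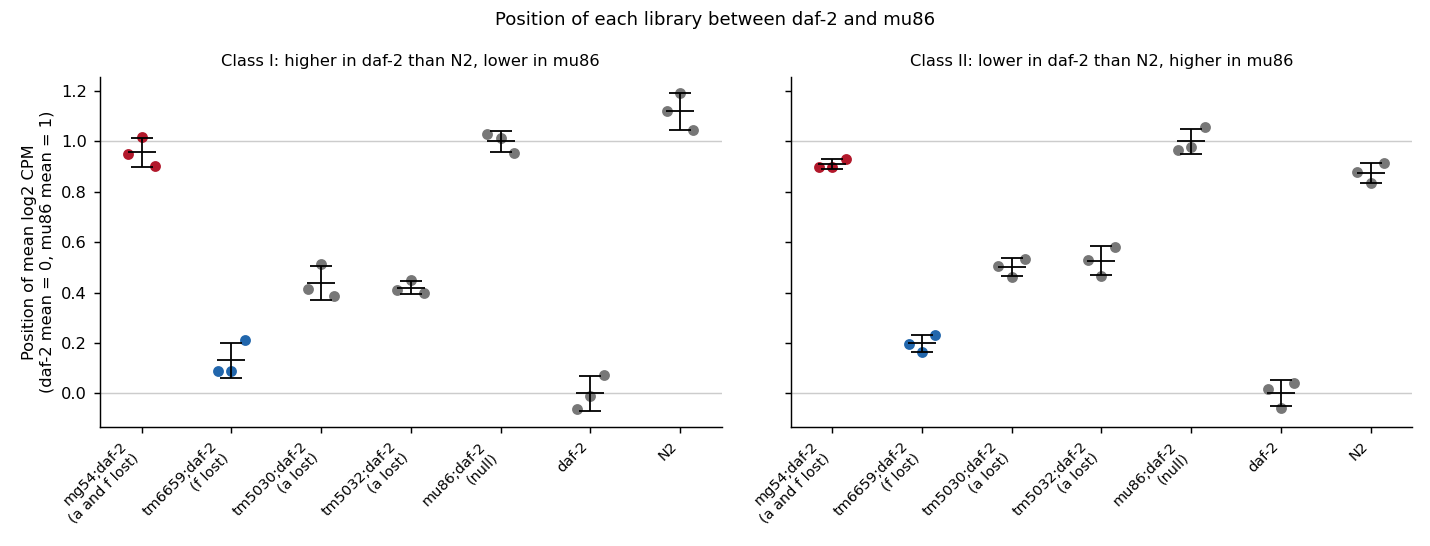
Position of each library between the daf-2 mean (0) and the mu86 mean (1), from the mean log2 CPM of the 609 class I genes (left) and the 249 class II genes (right). Points are libraries and bars are the mean and SD of 3; mg54;daf-2 (red) lies at 0.956 for class I and tm6659;daf-2 (blue) at 0.131.

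The effect of losing a could also be measured where f was present, by setting the mean of tm5030 and tm5032 against daf-2. That contrast shares no library with mg54 against tm6659. In it 226 genes (1.87%) changed, with 132 (1.09%) lower and 94 (0.777%) higher in the daf-16a mutants than in daf-2. The block gave 695 genes, 384 lower and 311 higher. The count was 128, 105 or 141 without daf-2 replicate 1, 2 or 3, and 56 without replicate 2 of every genotype. The share that was higher, 41.6% here, was 53.9% with the deposited FPKM values and 1 added and 65.2% with 0.1 added. It was 28.5% with limma-voom, 30.4% without replicate 2 of every genotype and 32.7% without replicate 3 of every genotype.

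Of the 132 genes that fell with loss of a in the presence of f, 118 also fell with loss of a in its absence, which is 89.4% of the first list and 25.4% of the second. Of the 94 genes that rose, 67 also rose, which is 71.3% and 20.5%. Among all genes tested, 3.84% fell and 2.7% rose without f, and 1.09% fell and 0.777% rose with f present. Over the 464 genes that fell in mg54, the daf-16a mutations had a median log2 change of -0.62, with 454 genes below 0. Over the 327 genes that rose, it was 0.46, with 317 above 0, and over all genes tested it was -0.03. Across all 12091 genes the log2 changes of the 2 contrasts had a Pearson correlation of 0.592 and a Spearman correlation of 0.417, given as a description, since genes are not independent replicates.

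The difference between the 2 effects of losing a, without f and with f, was tested for each gene in the same model. It passed for 53 genes (0.438%), of which 46 had the more negative effect without f and 7 the more positive effect. The block gave 154 such genes, 102 and 52 in those directions. The count was 32 without mg54 replicate 1, 33 without tm6659 replicate 2, 33 without daf-2 replicate 3, and 13 without replicate 2 of every genotype. A gene absent from the 53 is not shown to respond alike with and without f.

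**Figure D3:**
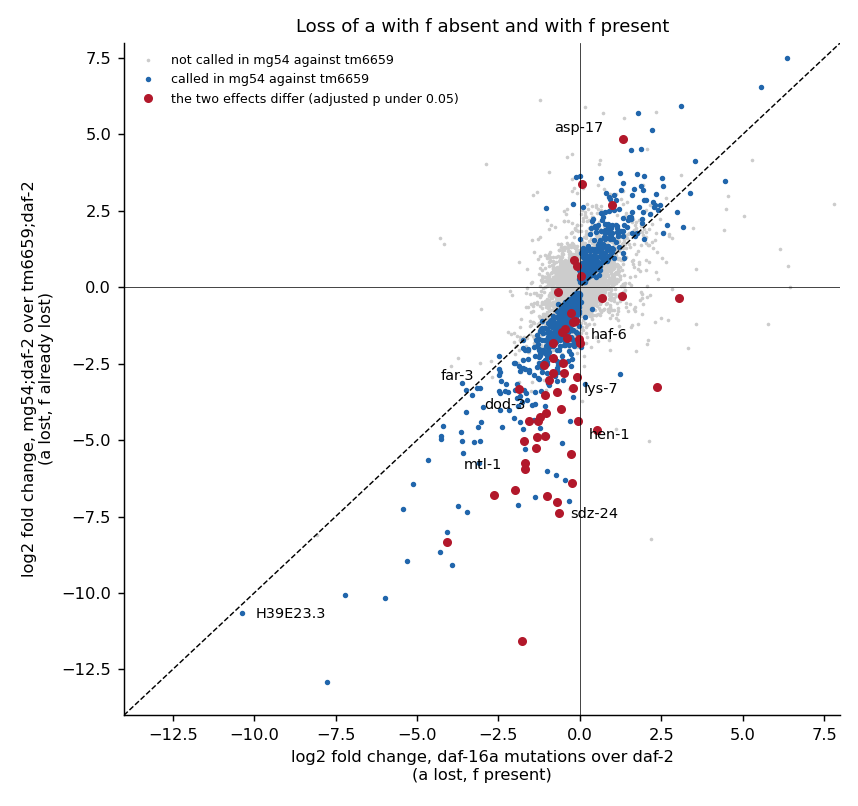
Log2 fold change of each gene for loss of a without f (vertical axis, mg54;daf-2 over tm6659;daf-2) and with f present (horizontal axis, mean of tm5030;daf-2 and tm5032;daf-2 over daf-2). Grey and blue points are genes not called and called in mg54;daf-2 against tm6659;daf-2, red points are the 53 genes whose 2 effects differ, and the dashed line marks equal effects; 46 of the red genes have the more negative effect without f.

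One pattern was a transcript that was low wherever a was lost, whether or not f was present. The clearest case was H39E23.3, an uncharacterised gene on chromosome V chosen after its values were seen. It held 0.0952, 0.0681 and 0.167 CPM in mg54, against 190, 247 and 124 CPM in tm6659 (log2 change -10.65 ± 0.52 SE, adjusted p = 3.62e-09). It averaged 0.117 CPM in tm5030 and 0.155 CPM in tm5032, against 187 CPM in daf-2 (log2 change -10.38 ± 0.36 SE, adjusted p = 1.98e-11). The 2 effects of losing a differed by -0.26 ± 0.72 SE, which did not pass (adjusted p = 1).

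A run of 3 neighbours on chromosome IV, also chosen after their values were seen, showed the same pattern. F56D6.9 held no fragment in any mg54 library, against 33.4, 32.7 and 13.4 CPM in tm6659, which makes it at least 854-fold lower (floor of 3 fragments over the mg54 libraries together). It averaged 0.201 CPM in tm5030 and 0.102 CPM in tm5032, against 32.2 CPM in daf-2. The adjacent F56D6.8 was at least 127-fold lower in mg54 on the same floor. The third, dct-8, held 2 fragments in the mg54 libraries together, against 253 in the tm6659 libraries, and its call was not made by limma-voom or without replicate 2 of every genotype.

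Members of the fixed lists that were low without a in both settings include a collagen gene, a lipid-binding protein gene and an insulin-like peptide gene. The collagen gene col-85 averaged 0.0931 ± 0.0546 CPM in mg54, against 2.54 ± 0.65 CPM in tm6659, and its log2 change was -4.72 without f and -3.64 with f (adjusted p = 4.14e-06 and 1.25e-05). The fatty acid and retinol binding protein gene far-3 held 9.71, 14.9 and 5.83 CPM in mg54, against 62.5, 107 and 50.4 CPM in tm6659, with a log2 change of -2.86 without f and -2.49 with f (adjusted p = 0.000907 and 0.000983). The insulin-like peptide gene ins-10 had a log2 change of -3.14 without f and -3.61 with f (adjusted p = 0.00193 and 0.000182). Its levels were low, with 11 fragments in the mg54 libraries together, against 119 in the tm6659 libraries, and its call in mg54 did not pass without replicate 2 of every genotype. In the other direction, oac-20 and cyp-13A2 had log2 changes of 3.32 and 3.57 without f and 2.56 and 2.53 with f (adjusted p at most 0.000147 for each of the 4).

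Another pattern was a transcript that was high with either isoform left and low when both were lost. The lysozyme gene lys-7, which acts in bacterial defence, held 28.5, 22.9 and 21.3 CPM in mg54, against 245, 262 and 204 CPM in tm6659 (log2 change -3.29 ± 0.26 SE, adjusted p = 5.48e-07). It averaged 194 CPM in tm5030 and 218 CPM in tm5032, against 237 CPM in daf-2 (log2 change -0.21 ± 0.20 SE, adjusted p = 0.978). The difference between the 2 effects was -3.08 ± 0.33 SE (adjusted p = 0.000101), and it passed under all 27 alternatives tried. For sdz-24 the difference was -6.75 ± 0.70 SE (adjusted p = 8.05e-05) and likewise passed under all of them, with 11.5 CPM in tm5030 and 10.9 CPM in tm5032, against 17.3 CPM in daf-2.

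The saposin-like gene spp-2, of a family that includes membrane-active antimicrobial peptides, held 8.22, 6.10 and 15.7 CPM in mg54, against 80.7, 81.8 and 67.1 CPM in tm6659. It averaged 100.0 CPM in tm5030 and 106 CPM in tm5032, against 110.3 CPM in daf-2, and the difference of the effects was -2.83 ± 0.48 SE (adjusted p = 0.00907). For hen-1 the difference was -4.34 ± 0.68 SE (adjusted p = 0.00522). The gene pud-3, named for a protein abundant in daf-2 animals, held 66.5, 67.0 and 48.8 CPM in mg54, against 356, 491 and 436 CPM in tm6659, with a difference of -2.34 ± 0.44 SE (adjusted p = 0.0204). That difference was lost under 10 of 27 alternatives. The mean of pud-3 was 4.24 CPM in N2 and 81.6 CPM in mu86, so mg54 animals stayed well above N2. The peroxisomal acyl-CoA oxidase gene acox-3 averaged 22.9 ± 4.0 CPM in mg54, against 49.2 ± 4.1 CPM in tm6659, and its difference was -0.97 ± 0.17 SE (adjusted p = 0.0127), which was lost without mg54 replicate 1. The locus F21C10.11/F21C10.13, which has no public symbol and was chosen after its values were seen, had the smallest p of all 53, with a difference of -6.18 ± 0.49 SE (adjusted p = 7.59e-06).

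Several of the 53 genes were in between, lowered in part by loss of a in the presence of f and lowered further in its absence. For ftn-1 the log2 change with f present was -1.22 (adjusted p = 0.0207), against -4.25 without f, and the difference was -3.03 ± 0.44 SE (adjusted p = 0.00233). For lipl-2 the 2 changes were -1.28 with f (adjusted p = 0.0137) and -4.38 without f, with a difference of -3.10 ± 0.44 SE (adjusted p = 0.00167). The locus of mtl-1 with more counts changed by -1.68 with f (adjusted p = 0.0281), and the difference was -4.07 ± 0.67 SE (adjusted p = 0.00752). The gut esterase gene ges-1, used as an intestinal marker, held 24.6, 23.5 and 22.7 CPM in mg54, against 58.5, 64.5 and 59.1 CPM in tm6659, and its log2 changes were -1.36 without f and -0.45 with f (adjusted p = 1.64e-07 and 0.00508). For sod-3 the changes were -3.56 without f and -1.82 with f, and the difference did not pass (-1.74 ± 0.49 SE, adjusted p = 0.248), but it passed with the block (adjusted p = 0.000373).

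Among known targets, lea-1 was low in both genotypes and not detectably different between them. This gene of the late embryogenesis abundant family, which protects against desiccation, held 234, 217 and 236 CPM in mg54, against 236, 249 and 255 CPM in tm6659 (log2 change -0.11 ± 0.12 SE, adjusted p = 0.868). Its mean was 1952 CPM in daf-2, 2012 CPM in tm5030 and 1985 CPM in tm5032. For sip-1, a small heat shock protein, the libraries averaged 284 ± 59 CPM in mg54, against 385 ± 58 CPM in tm6659, with 921 CPM in daf-2. Its log2 change was -0.44 ± 0.17 SE (adjusted p = 0.199), which passed with the block (adjusted p = 0.00566). Of genes chosen after their values were seen, icmt-1 averaged 1.66 ± 1.53 CPM in mg54, against 1.17 ± 0.61 CPM in tm6659, with 16.47 CPM in tm5030, 16.6 CPM in tm5032 and 25.03 CPM in daf-2.

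A pair of genes differed in 1 strain alone. The half-molecule ABC transporter gene haf-6 held 10.9, 11.0 and 9.64 CPM in mg54, against 29.9, 41.0 and 40.7 CPM in tm6659 (log2 change -1.82 ± 0.12 SE, adjusted p = 9.44e-08), and its mean was 42.02 to 43.95 CPM in the other 5 genotypes. The locus cTel55X.1, chosen after its values were seen, averaged 23.7 ± 0.8 CPM in mg54, against 2.26 ± 1.01 CPM in tm6659, and 18.4 to 23.2 CPM in the other 5. The mu86 null, which lacks a and f too, had 42.5 CPM of haf-6. Whether these values follow the daf-16 alleles or something else in these strains cannot be told apart here.

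**Figure D4:**
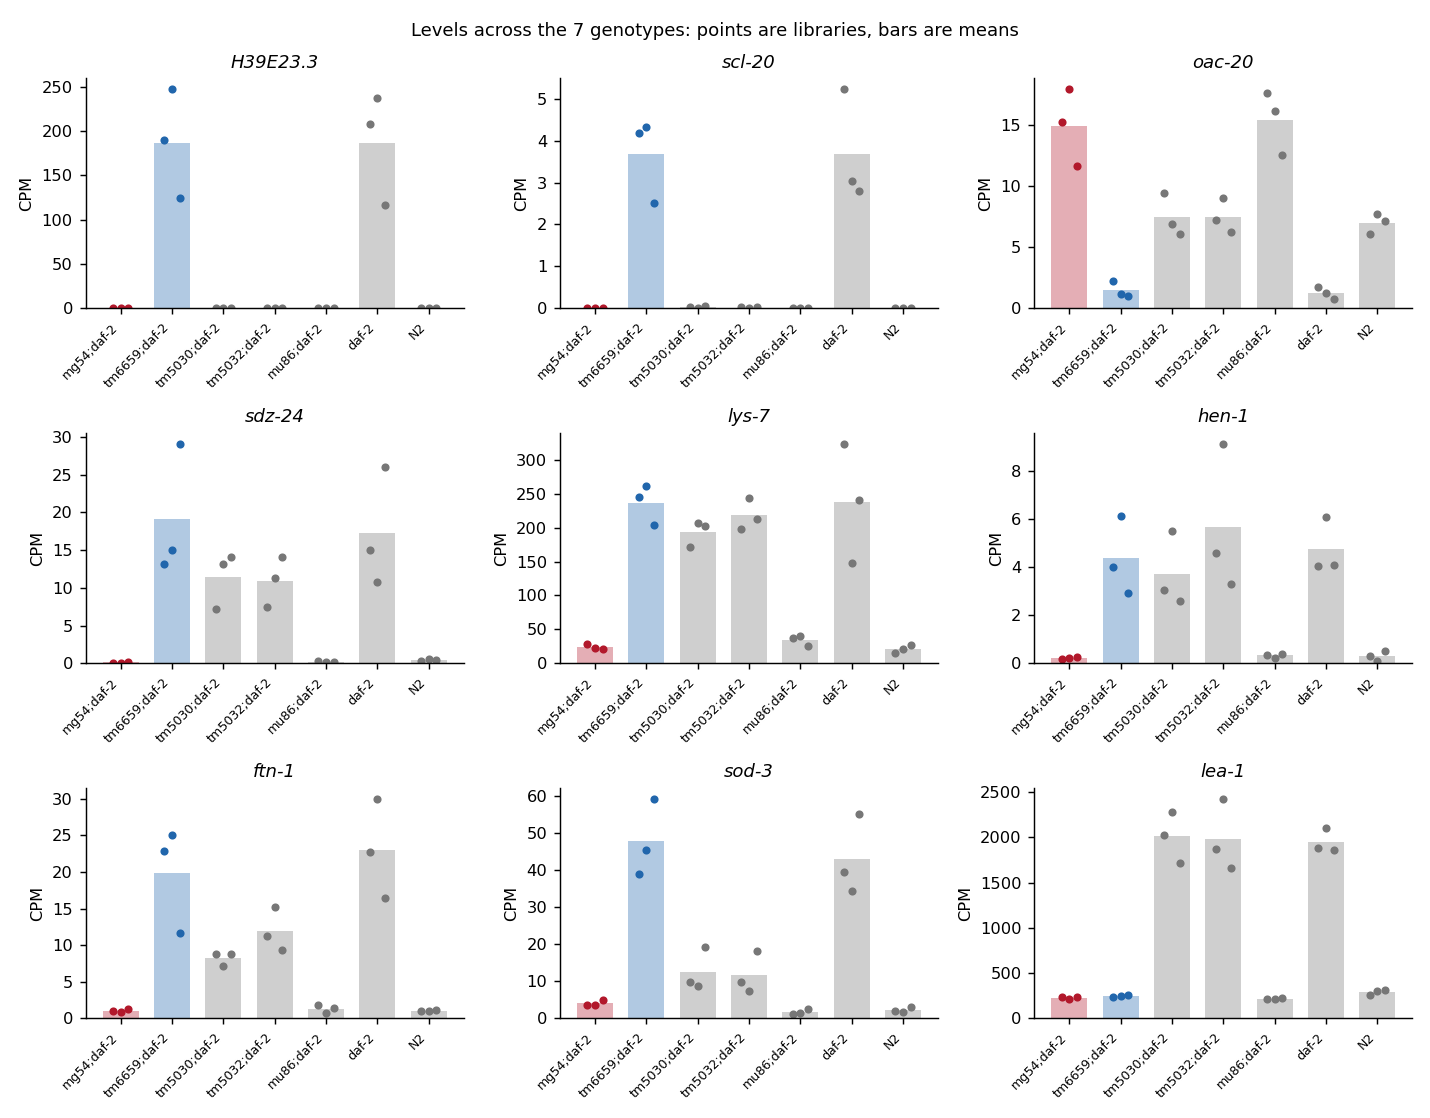
Level in CPM of 9 genes in every library, with the 7 genotypes along the horizontal axis; points are libraries and bars are the means of 3. Top row: H39E23.3 and scl-20 are low and oac-20 is high in mg54;daf-2, against tm6659;daf-2, and likewise in the daf-16a mutants; middle row: sdz-24, lys-7 and hen-1 are low in mg54;daf-2 and not in the daf-16a mutants; bottom row: ftn-1 and sod-3 are intermediate in the daf-16a mutants, and lea-1 is low in mg54;daf-2 and in tm6659;daf-2 alike.

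Of 18 tested loci of genes that DAF-16 is known to raise, 11 fell in mg54 animals (61.1%), with a median log2 change of -1.46. Those not named above were lipl-4, ctl-1/ctl-2, hsp-12.3, hsp-12.6 and icl-1. The catalase locus ctl-1/ctl-2, whose products break down hydrogen peroxide, averaged 61.2 ± 0.7 CPM in mg54, against 92.9 ± 10.9 CPM in tm6659 (log2 change -0.60 ± 0.11 SE, adjusted p = 0.00247), while the daf-16a mutations with f gave -0.06 ± 0.10 (adjusted p = 0.999). Its call in mg54 was lost with the deposited FPKM values and without replicate 2 of every genotype. The glyoxylate-cycle gene icl-1 held 139, 101 and 203 CPM in mg54, against 560, 418 and 275 CPM in tm6659 (log2 change -1.50 ± 0.38 SE, adjusted p = 0.0218). Its call was lost under 7 of 19 alternatives, among them leaving out mg54 replicate 1 or 2 or tm6659 replicate 1 or 2. The other 7 loci were lea-1, sip-1, spp-1/umps-1, the 2 loci that hold dod-6, and the heat-shock genes hsp-16.2 and hsp-16.41. With the block sip-1, spp-1/umps-1 and dod-6 (log2 change -1.48) also passed.

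Of 10 loci that DAF-16 is known to lower, dod-22, dod-23, dod-24 and dod-17 rose in mg54 animals. The gene dod-23 held 93.1, 111 and 82.3 CPM in mg54, against 22.8, 28.6 and 20.5 CPM in tm6659 (log2 change 2.00 ± 0.25 SE, adjusted p = 5.48e-05). The other 6 were vit-2, vit-5, dod-19, ins-7, daf-15 and gcy-18/nstp-5. Of these, the yolk protein gene vit-5 (0.53, adjusted p = 0.0907) and dod-19 (0.94, adjusted p = 0.106) passed with the block, at adjusted p = 0.00643 and 0.0109. Both target lists hold genes known as DAF-16 targets beforehand, and the counts stand beside 3.84% lower and 2.7% higher over all genes. The lists were chosen with earlier results of these data known, so the shares are descriptions and not a test.

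Stress defence and detoxification lists moved in part. Counts with the block, here and for the other lists, stand beside 6.72% lower and 5.86% higher over all genes with the block. Counts without it stand beside 3.84% lower and 2.7% higher. Among 9 loci for metallothioneins, ferritins and cadmium-response genes, both mtl-1 loci, ftn-1 and cdr-2 fell and cdr-1 rose. Of 10 loci for superoxide dismutases, catalases and peroxiredoxins, sod-3 and ctl-1/ctl-2 fell. Of 10 small heat shock protein loci, hsp-12.3 and hsp-12.6 fell, and with the block 3 fell and 1 rose. The hsp-12.3 call was lost under 5 of 19 alternatives, and the hsp-12.6 call without replicate 2 of every genotype. The gene hsp-12.6 averaged 1.04 ± 0.23 CPM in mg54, against 3.84 ± 1.25 CPM in tm6659 (log2 change -1.88 ± 0.38 SE, adjusted p = 0.00429). Of 17 other chaperones, hsp-3, the endoplasmic reticulum chaperone, rose by 0.50 on the log2 scale (adjusted p = 0.00197), and with the block 4 rose. Its call was not made with the deposited FPKM values or with the 6 libraries alone.

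Detoxification enzymes oxidise, glutathionylate or glucuronidate small molecules, and their families did not move as one. Of 48 cytochrome P450 loci, 7 fell and 3 rose, beside 3.84% lower and 2.7% higher over all genes. The largest fall among their 4 named members was in cyp-35B1, at 0.0611 ± 0.0266 CPM in mg54, against 1.89 ± 0.63 CPM in tm6659 (log2 change -4.86 ± 0.57 SE, adjusted p = 3.63e-05). Of 35 glutathione S-transferase loci, 5 fell, among them gst-20, with 5.11, 6.47 and 7.64 CPM in mg54, against 15.0, 20.4 and 21.4 CPM in tm6659 (log2 change -1.56 ± 0.20 SE, adjusted p = 7.21e-05). With the block 9 of the 35 fell and 1 rose. Of 51 UDP-glucuronosyltransferase loci, 8 rose and 3 fell, and with the block 14 rose and 4 fell. In this family ugt-53 averaged 15.5 ± 9.1 CPM in mg54, against 1.65 ± 0.24 CPM in tm6659 (log2 change 3.23 ± 0.36 SE, adjusted p = 2.21e-05).

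Genes of defence against microbes moved both ways. Of 65 antimicrobial loci, among them lysozymes and saposin-like proteins, 14 fell and 5 rose, beside 3.84% lower and 2.7% higher over all genes. Beside lys-7 and spp-2, the defensin-like gene abf-2 fell to 0.231 ± 0.099 CPM in mg54, against 1.11 ± 0.06 CPM in tm6659 (log2 change -2.24 ± 0.30 SE, adjusted p = 0.000152). The infection response gene irg-4 held 11.1, 13.4 and 15.6 CPM in mg54, against 2.64, 3.83 and 3.53 CPM in tm6659 (log2 change 2.00 ± 0.26 SE, adjusted p = 9.79e-05). Of 98 C-type lectin loci, a family of sugar-binding proteins, 19 rose and 9 fell. The lectin gene clec-186 held 58.6, 62.8 and 54.2 CPM in mg54, against 24.3, 23.9 and 29.7 CPM in tm6659 (log2 change 1.17 ± 0.11 SE, adjusted p = 4.25e-06). In the same family clec-61 held 3 fragments in the mg54 libraries together, against 222 in the tm6659 libraries. Lectin genes are near-identical in places, so reads can have been divided among them.

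**Figure D5:**
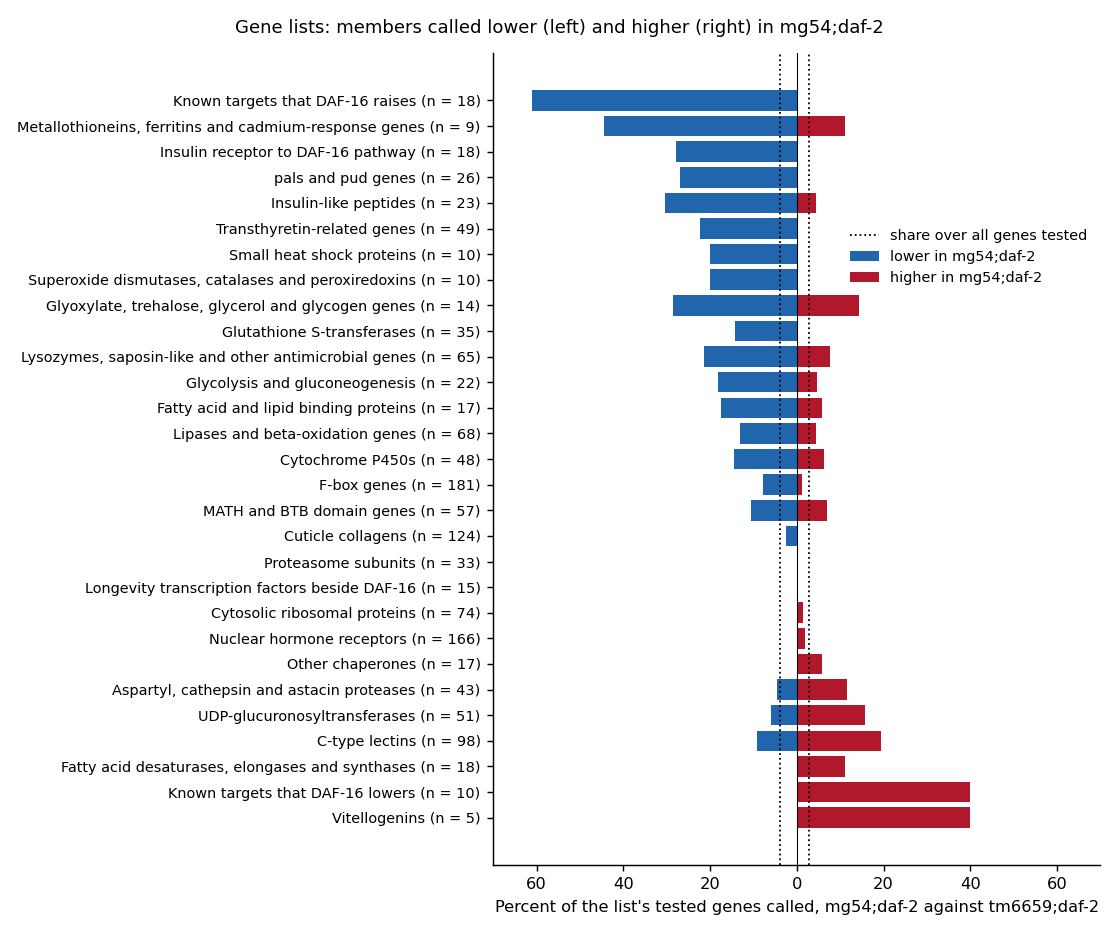
Share of the tested loci of each gene list that were called lower (blue, to the left) or higher (red, to the right) in mg54;daf-2 against tm6659;daf-2, in percent, with n the tested loci. Dotted lines mark the shares over all genes, 3.84% lower and 2.7% higher. The list of genes that DAF-16 is known to raise reaches 61.1% lower, and C-type lectins have more members higher (19) than lower (9). The lists were chosen with earlier results of these data known.

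In fat metabolism, 9 of 68 loci for lipases and beta-oxidation were lower and 3 higher, beside 3.84% and 2.7% over all genes. Besides lipl-1, lipl-2 and acox-3, the lipase gene lipl-4 held 1.37, 1.40 and 0.892 CPM in mg54, against 4.24, 4.24 and 3.04 CPM in tm6659 (log2 change -1.66 ± 0.24 SE, adjusted p = 0.00033). With the block 14 fell and 6 rose. Of 18 loci for desaturases, elongases and fatty acid synthases, fat-7 and fat-1 rose. The fat-1 call was not made with the deposited FPKM values or with the 6 libraries alone. For fat-7, whose product desaturates stearoyl-CoA, the libraries held 173, 142 and 134 CPM in mg54, against 22.4, 35.7 and 34.3 CPM in tm6659 (log2 change 2.28 ± 0.27 SE, adjusted p = 4.17e-05). With the block 6 of the 18 rose and 2 fell. Of 17 lipid-binding protein loci, far-3, far-7 and lbp-1 fell and far-6 rose, and with the block 5 fell and 3 rose. The far-7 call was lost under 5 of 19 alternatives, among them leaving out mg54 replicate 1 or tm6659 replicate 1, and the far-6 call with the 6 libraries alone and without replicate 3 of every genotype.

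Enzymes of sugar metabolism changed by small amounts, with exceptions. Of 22 glycolysis and gluconeogenesis loci 4 fell and 1 rose, and with the block 7 fell and 1 rose. Without the block 3.84% of all genes fell and 2.7% rose. The gluconeogenic gene pck-2 averaged 882 ± 166 CPM in mg54, against 1409 ± 67 CPM in tm6659 (log2 change -0.68 ± 0.13 SE, adjusted p = 0.00358). Of 14 loci for the glyoxylate cycle, trehalose, glycerol and glycogen, 4 fell and 2 rose, and with the block 7 fell and 4 rose. The sorbitol dehydrogenase family gene sodh-1 held 11.8, 4.87 and 19.0 CPM in mg54, against 120, 104 and 148 CPM in tm6659 (log2 change -3.38 ± 0.63 SE, adjusted p = 0.00243). Its relative sodh-2 fell too (log2 change -3.42 ± 0.52 SE, adjusted p = 0.000439). The sodh-1 call did not pass without replicate 2 of every genotype (adjusted p = 0.0599).

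Vitellogenins, the yolk proteins that the intestine makes for oocytes, had 2 of 5 loci higher in mg54, and 4 of 5 with the block. The gene vit-1 held 8562, 8186 and 8550 CPM in mg54, against 4641, 5129 and 4846 CPM in tm6659 (log2 change 0.79 ± 0.08 SE, adjusted p = 1.36e-05), and vit-4 rose by 0.69 on the log2 scale (adjusted p = 0.00103). With the deposited FPKM values neither call was made.

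Insulin-like peptides are the ligands of DAF-2, acting as agonists or antagonists. Of 23 loci, 7 fell and 1 rose, with a median log2 change of -0.76. Over all genes 3.84% fell and 2.7% rose. The members that fell and are named here, ins-10, ins-11 and ins-29, all had low counts, and none of these calls was made without replicate 2 of every genotype. The calls of ins-10 and ins-29 were also lost with the 6 libraries alone, and for ins-29 with the block there too. For ins-29 the means were 0.152 ± 0.111 CPM in mg54, against 1.04 ± 0.26 CPM in tm6659 (log2 change -2.73 ± 0.53 SE, adjusted p = 0.00344). The locus that rose, acdh-2/ins-13, merges a peptide gene with an acyl-CoA dehydrogenase gene. Of 18 loci of the pathway from the receptor towards DAF-16, 5 fell in mg54 animals: daf-2, pdk-1, akt-1, akt-2/ceh-89 and clec-86/ist-1. The daf-16 locus is not in this list, and it was higher in mg54 (log2 change 0.71). The kinase gene pdk-1, which acts between the receptor and AKT, held 8.51, 10.4 and 8.03 CPM in mg54, against 15.8, 17.0 and 15.3 CPM in tm6659 (log2 change -0.84 ± 0.14 SE, adjusted p = 0.00138). Its call did not pass with the deposited FPKM values or with the 6 libraries alone.

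Further families were followed for breadth. Of 49 transthyretin-related loci 11 fell, and 17 with the block. In this family ttr-26 held 2.83, 1.87 and 2.65 CPM in mg54, against 38.2, 46.0 and 16.21 CPM in tm6659 (log2 change -3.77 ± 0.45 SE, adjusted p = 3.87e-05). Of 26 pals and pud loci 7 fell, among them pals-26, with 1.14, 0.477 and 0.502 CPM in mg54, against 9.01, 6.97 and 5.67 CPM in tm6659 (log2 change -3.35 ± 0.39 SE, adjusted p = 2.97e-05). F-box genes had 14 of 181 loci lower and 2 higher, and MATH and BTB domain genes had 6 of 57 lower and 4 higher, beside 3.84% lower and 2.7% higher over all genes.

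Of 124 cuticle collagen loci 3 fell, near the background of 3.84%, and with the block 12 fell and 2 rose, beside 6.72% lower and 5.86% higher over all genes with the block. The 3 called without it were col-85, col-50 and col-183, and neither col-50 nor col-183 had a fragment in any mg54 library. The gene col-50 was at least 54.6-fold lower in mg54 than in tm6659 animals on the floor of 3 fragments. Of 43 protease loci 5 rose and 2 fell, and with the block 7 rose and 6 fell. The cathepsin B-like gene cpr-5 held 259, 242 and 281 CPM in mg54, against 85.7, 79.3 and 115 CPM in tm6659 (log2 change 1.48 ± 0.25 SE, adjusted p = 0.000996).

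Nuclear hormone receptors had 3 of 166 loci higher, near the background of 2.7%, and with the block 8 rose and 1 fell. Cytosolic ribosomal proteins had 1 of 74 higher, and 7 with the block, beside 5.86% of all genes with the block. The 1 call, Y106G6G.1/rps-7, was lost under 13 of 19 alternatives, among them leaving out mg54 replicate 2 or 3 or tm6659 replicate 1 or 2. The edgeR test called 0 of 33 proteasome loci (0 at an unadjusted p under 0.05, and 0 by DESeq2 and by limma-voom). It called 0 of 15 longevity transcription factor loci (1 at an unadjusted p under 0.05, and 0 by DESeq2 and by limma-voom).

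Genes called in the same direction often lay side by side in the gene order of the reference annotation. Of 448 lower loci placed in that order, 88 (19.6%) had a neighbour that was also called lower, while 7.45% of all 11649 loci had such a neighbour. Genes listed at several loci were not merged, so both mtl-1 loci take the same place and count as neighbours. Of 317 higher loci, 54 (17%) had a higher neighbour, against 5.31% of all loci. Runs of 3 include F56D6.9, F56D6.8 and dct-8 among the lower and dod-22, F55G11.2 and dod-17 among the higher genes. A run of 4 loci of the clec family, from clec-25/clec-26/clec-27/clec-28 to clec-22, was higher. By chromosome, V held the largest share of called genes, with 5.7% lower and 4.15% higher, and I the smallest, with 2.56% and 1.36%. Neighbouring genes can share reads where they overlap, since the counting is not stated to use strand.

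Markers of tissues and stages were read beside these results. In whole animals fewer cells of a type and less RNA per cell cannot be told apart. No marker that passed the filter was without fragments in either genotype. The filter removes genes with few counts, so this does not cover every marker. It kept 4 of 10 embryo loci and 69 of 72 sperm loci. The sum over 8 oocyte markers was 4638 to 6922 CPM in mg54, against 5603 to 6061 CPM in tm6659, and the sums over 69 sperm, 5 germ line, 8 muscle and 8 hypodermis markers also overlapped. The sum over 5 pharynx markers was 57.8 to 121 CPM in mg54, against 36.3 to 51.9 CPM in tm6659, and the sum over 4 embryo markers was 12.5 to 16.9 CPM in mg54, against 9.53 to 10.8 CPM in tm6659. The edgeR test called 0 of the 5 pharynx loci (3 at an unadjusted p under 0.05, 1 by DESeq2, 0 by limma-voom and 3 with the block). It called 0 of the 4 embryo loci (2 at an unadjusted p under 0.05, 1 by DESeq2, 0 by limma-voom and 1 with the block). Of 7 intestine markers the edgeR test called ges-1 (4 at an unadjusted p under 0.05, 2 called by DESeq2, 1 by limma-voom, and 1 lower and 2 higher with the block), and the sum was 991 to 1549 CPM in mg54, against 924 to 1059 CPM in tm6659. Of 10 neuron markers, unc-18 was higher in mg54, by 0.27 on the log2 scale (adjusted p = 0.031), a call lost under 11 of 19 alternatives, among them leaving out mg54 replicate 1 or 2 or tm6659 replicate 1 or 2. The part of these differences in the gene results was not tested.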

How the data were processed

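RNA-seq of poly(A) RNA covered 21 libraries, 3 of each of 7 genotypes, with 30384772 to 47170645 fragments per library. Per the submitters' processing notes, the authors used CASAVA 1.8.2, TopHat2 2.0.9 and Cufflinks 2.1.1, and the genome build and annotation were not given in the sources used here. For 33886 loci the authors deposited expected counts and, in a second table, length-scaled FPKM, and no column was left out. Of the count values, 86.3% are whole within 1e-09, as counts are not where a fragment was divided among transcripts. The 3 entries that are not loci and the 300 loci with no gene name, 1.06% to 1.54% of a library, were left out. Of 39528 gene names, 37780 (95.6%) matched Ensembl release 115 (WBcel235), used for names and gene order.

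Counts were rounded and fitted with edgeR 4.0.16 (R 4.3.3) over all 21 libraries, with TMM scaling, the filterByExpr filter and a term per genotype, which left 12091 loci, 1880 of them (15.6%) with more than 1 coding gene. The biological coefficient of variation was 0.346. Adjusted p-values are 2-sided and adjusted over all loci. Contrasts were mg54 minus tm6659, the mean of tm5030 and tm5032 minus daf-2, and their difference. Classes came from daf-2 minus N2 and mu86 minus daf-2. Log2 CPM, used for the positions and the pairing, had a prior count of 2. The fold changes did not use it and kept the default prior count of edgeR. The scripts were tested on simulated counts.

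Same-numbered libraries deviated together from their genotype means in the 5 genotypes of the contrasts, so the numbers pair those libraries. Correlations were 0.18 to 0.538 between mg54 and tm6659 and at least 0.132 in all pairs of the 5. The N2 and mu86 libraries were not checked. In mu86 the mean log2 CPM of the muscle markers was lowest in replicate 1 (8.34, 8.73 and 9.14 in order), whereas each other genotype had it lowest in replicate 2. The pairing comes from the data, since the labels name no shared day.

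The members and the 38 gene lists were chosen with earlier results of these data known. Genes named are daf-16, daf-2, known targets, the 15 largest changes in each direction among called genes with a public symbol, a mean of at least 2 CPM and no overlap, up to 4 called members of each list by p, and, for the difference, up to 8 called genes of smallest p in each direction among loci with a public symbol that averaged 2 CPM or more in all libraries. Others are said to be chosen after their values were seen, and akt-1, cdr-1, F55G11.2, clec-22, the clec-25 locus and scl-20 were too. Alternatives were RLE and upper-quartile scaling, no filter or a mean of at least 2 CPM, DESeq2 1.42.0, limma-voom (limma 3.58.1), limma on log2 FPKM with 1 or 0.1 added, the replicate block, the compared groups alone, and leaving out libraries. Leaving out replicate 3 of every genotype and the block with the 6 libraries alone were chosen after seeing the data.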

Additional observations from a re-analysis of the deposited data

Results flagged for a closer look

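The values here are log2 differences between the effect of losing a without f (mg54 minus tm6659) and with f (tm5030 and tm5032 minus daf-2). Each is given because the edgeR test of the difference itself passed, as it did for 53 genes in all. More negative without f were sdz-24 (-6.75), hen-1 (-4.34), both mtl-1 loci (-4.07 and -4.24), cyp-35B1 (-3.80), dlhd-1 (-3.57), lipl-2 (-3.10), lys-7 (-3.08), dod-3 (-3.05) and ftn-1 (-3.03). The same held for spp-2 (-2.83), pud-3 (-2.34), btb-16/btb-17/btb-18 (-2.11), haf-6 (-1.82), acox-3 (-0.97) and ges-1 (-0.92). More positive without f were asp-17 (3.54), srh-70 (1.72), the daf-16 locus (0.79), dnbp-1 (0.52) and sahd-1 (0.34). For haf-6 the difference stands beside a low level in the mg54 strain alone. For cTel55X.1, listed below, it stands beside a low level in the tm6659 strain alone. The daf-16 locus was low in both of these strains and not in the mu86 null. Of genes chosen after their values were seen, F17B5.1 (-9.79, with no fragment in mg54, so that the value depends on the prior count), Y6G8.2 (-6.30), F21C10.11/F21C10.13 (-6.18), Y6G8.9 (-5.84), F15B9.6 (-4.65), clc-27 (-3.39), clc-24 (-1.97) and Y39B6A.1 (-1.03) were more negative without f, and cTel55X.1 (3.33) was more positive.

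Many of these calls were lost when 1 library was left out or the processing changed. The difference no longer passed under 21 of 27 alternatives for dnbp-1 and for sahd-1, 20 for srh-70, 13 for daf-16, 11 for the mtl-1 locus with fewer counts, 10 for pud-3, 8 for asp-17, 8 for clc-24 and 5 for acox-3. Of the 26 alternatives that gave a value, it was lost under 18 for dlhd-1, 13 for clc-27 and 6 for cyp-35B1. Each of these lost the call without mg54 replicate 1 except asp-17, which lost it without mg54 replicate 3. Under every alternative tried it passed for sdz-24, lys-7, F21C10.11/F21C10.13, F17B5.1, Y6G8.2 and cTel55X.1, the last of which was low in the tm6659 strain alone.

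For dnbp-1 the loss of a with f present lowered the level (log2 change -0.67, adjusted p = 2.96e-05), while no change passed without f (-0.15, adjusted p = 0.404). The test of the difference between these effects was lost under 21 of 27 alternatives, among them RLE scaling, no filter and leaving out any 1 mg54 or tm6659 library. Its level averaged 56.2 CPM in mg54, 62.3 CPM in tm6659, 57.0 CPM in tm5030, 57.4 CPM in tm5032 and 90.9 CPM in daf-2.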

How the results depend on the processing

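Every alternative kept the direction of the named genes called in mg54 against tm6659, with 2128 values still called and 182 not, counting each gene under each alternative. For the genes called in the difference of the effects, 631 values were still called and 175 were not. With the replicate block, counts were 1522 for mg54 against tm6659, 154 for the difference and 695 for the daf-16a mutations. In class I they were 655 of 1005, and in class II 275 of 556. DESeq2 gave 119 for the difference, 437 for the daf-16a mutations and 182 of 346 for class II. With FPKM and 1 added, 26 genes passed for the difference and 243 of 321 for class I, and with 0.1 added 32 and 237 of 309. With 0.1 added, FPKM moved the median of all genes by -0.15 for the difference and by 0.14 for the daf-16a mutations. The groups compared alone gave 331 for mg54 against tm6659 (685 with the block) and 77 for the daf-16a mutations. The latter gave 144 at a mean of at least 2 CPM. Leaving out replicates gave 347 to 704 for mg54 against tm6659, 13 to 66 for the difference and 56 to 252 for the daf-16a mutations. It gave 172 to 370 for class I and 54 to 138 for class II, with classes formed anew and changed in size each time. The class II median of log2 changes ran from 0.15 to 1.14. The causes were not tested. Intervals cover the spread between libraries and not errors of read assignment, and genes at a few fragments have fold changes that depend on the prior count.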

Other observations

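Of genes outside the naming rule, and chosen after their values were seen, the esterase gene cest-1.1 held 2 fragments in the mg54 libraries together, against 453 in the tm6659 libraries. F15B9.6 averaged 0.281 ± 0.156 CPM in mg54, against 28.8 ± 12.06 CPM in tm6659, with 11.5 CPM in both daf-16a mutants and 45.9 CPM in daf-2. F17B5.1 held no fragment in any mg54 library, against 11.8, 9.49 and 9.84 CPM in tm6659, and was at least 334-fold lower on the floor of 3 fragments over the mg54 libraries together. Its levels were 3.59 CPM in tm5030 and 4.33 CPM in tm5032, against 13.6 CPM in daf-2.

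For Y39B6A.1 the estimates in the 2 settings had opposite signs, and the first did not pass by edgeR without the block. It averaged 266 ± 7 CPM in mg54, against 339 ± 29 CPM in tm6659 (log2 change -0.35 ± 0.10 SE, adjusted p = 0.0537 by edgeR, and 0.00957 with the replicate block). It averaged 656 CPM in tm5030 and 612 CPM in tm5032, against 395 CPM in daf-2 (log2 change 0.68 ± 0.09 SE, adjusted p = 0.000477). The difference of the 2 effects was -1.03 ± 0.14 SE (adjusted p = 0.00119).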
